A study of Mus musculus with 71 samples.

Results

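The genes described here are 38 germline and meiosis genes of the mouse, among 24138 gene symbols in the RNA-seq tables. They were listed by gene function with earlier results of these data known, and Tex13b heads them because it was chosen by its difference between H1-TKO and WT in these same libraries, so its values are given as a description and are not tested. The question was whether other germline genes followed Tex13b. RNA was measured as poly(A) RNA-seq in 2 libraries of wild-type R1 mouse embryonic stem cells (WT) and 2 libraries of H1-TKO cells, which are R1 cells in which CRISPR/Cas9 editing disrupted 3 linker histone genes, H1f2, H1f3 and H1f4 (older names H1c, H1d and H1e). Both were grown in serum medium with LIF according to the labels of the ChIP samples. The growth note attached to the RNA samples describes HeLa culture, although their cell type is given as mouse embryonic stem cells. H1-TKO cells came from picked single-cell clones, so a difference between genotypes is also a difference between a clone and its parental line. The repressive histone mark H3K27me3 was measured by ChIP-seq, with 1 peak list per genotype used here. The study describes its RNA-seq duplicates as biologically independent samples.

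The genotype of the RNA-seq libraries was stated in opposite ways by 2 sources. The columns named KO in the deposited tables belong to samples titled WT, and the columns named R1 belong to samples titled H1KO. The column names are followed here, and the sample labels would reverse every RNA direction below. Each library was equal to the like-named column in all 1999 rows read from the study's own source table, within a relative tolerance of 0.001. The targeted genes could not settle the matter. H1f3, H1f4 and H1f5 were at 0 to 2.1 normalized counts in both H1-TKO libraries and at 3.9 to 44.7 in the WT libraries, but H1f5 was not targeted. H1f2 overlapped between genotypes, with 11.6 and 56.7 in WT against 18.7 and 7.4 in H1-TKO.

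Germline genes are expressed mainly in germ cells and gonads and are held silent in most somatic cells. In embryonic stem cells many of them carry CpG-rich promoters that are kept off by DNA methylation, by H3K9 methylation and by a variant Polycomb complex, PRC1.6, which reaches them through the E-box binding pair MGA and MAX and through E2F6. Their products act in a few well-known machines. Meiotic cohesin and axis proteins fold the paired chromosomes, the synaptonemal complex zips them together, recombinases repair the programmed breaks, and the piRNA pathway silences transposons in germ cells.

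The 4 RNA-seq libraries held 6951619 to 10538507 recovered reads, and 11113 accessions with a mean of at least 10 normalized counts were tested. Pluripotency genes were abundant in all libraries: Zfp42 lay between 6015 and 8991 normalized counts and Pou5f1 between 2586 and 5110. Nanog was listed at 0 throughout, and it is one of many genes with several accessions that the counting left near 0. The WT libraries differed from each other. A single accession took 11.8% of the normalized counts in WT replicate 2 and 1.98% to 2.08% in the other 3 libraries. Y-linked Zfy1 was at 63.6 and 90.5 in WT and at 0 in both H1-TKO libraries. Markers of differentiated cells, 15 genes, summed to 3195 in WT replicate 1, 1025 in WT replicate 2, 304 in H1-TKO replicate 1 and 317 in H1-TKO replicate 2, with Nes, an intermediate filament of neural progenitors, giving 2920, 849, 204 and 224 of these. Eomes, Sox17, Foxa2 and Fgf5 were listed at 0 in all 4 libraries, but each has several accessions, so these zeros cannot be read as absence. Fibroblast feeder markers, 9 genes, summed to 301 to 365 in WT and 516 to 584 in H1-TKO, and the difference was that of Thy1, since the other 8 summed to 255 and 176 in WT and 66.1 and 73.7 in H1-TKO. Dcn, Postn and Pdgfrb were listed at 0 and also have several accessions. The part of these differences in the results below was not tested.

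Of the 38 genes, 37 had an accession and 26 passed the filter. Among the 25 of these other than Tex13b, 3 rose in H1-TKO (Rec8, Mael and Mov10l1) and none fell, by limma with Benjamini-Hochberg adjustment over all accessions. Across all accessions tested, 9.84% were called higher and 10.7% lower, so the share of the 25 that rose was close to the background. Both H1-TKO libraries lay above both WT libraries for 10 of the 25, against 32.2% of all accessions, and below them for 1, against 34.2%. The other 14 overlapped. The median log2 fold change of the 25 was 0.28, against -0.025 over all accessions tested. These counts describe the genes that passed and do not stand for all listed genes, since Tex13b, Brdt and Tdrd9 had WT means under 10 and entered through their H1-TKO libraries. edgeR's quasi-likelihood test and DESeq2, run on the recovered reads, gave 3 higher and 0 lower as well. At an unadjusted limma p under 0.05 there were 7 higher and 0 lower, against 17.8% and 19.8% of all accessions, and Brdt and Tdrd9 are among the 7. The counts turned on single libraries: they were 10 higher and 7 lower without WT replicate 1, 10 and 1 without WT replicate 2, 2 and 0 without H1-TKO replicate 1, and 1 and 0 without H1-TKO replicate 2. The shares of all accessions moved with them, to 24.1% higher and 25.1% lower without WT replicate 1, 21.5% and 23.1% without WT replicate 2, 1.85% and 3.57% without H1-TKO replicate 1, and 1.79% and 3.47% without H1-TKO replicate 2. Beside Rec8, Mael and Mov10l1, the fit without WT replicate 1 called Brdt, Tdrd9, Tdrd12, Sycp2, Sycp3, Smc1b and Tex15 higher and Piwil2, Tex19.1, Tex19.2, Syce1, Stag3, Hormad2 and Slc25a31 lower, and the fit without WT replicate 2 called Brdt, Tdrd9, Piwil2, Sycp2, Smc1b, Stag3 and Tex101 higher and Sycp3 lower. Piwil2, Stag3 and Sycp3 were thus called in opposite directions by these fits.

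**Figure D1:**
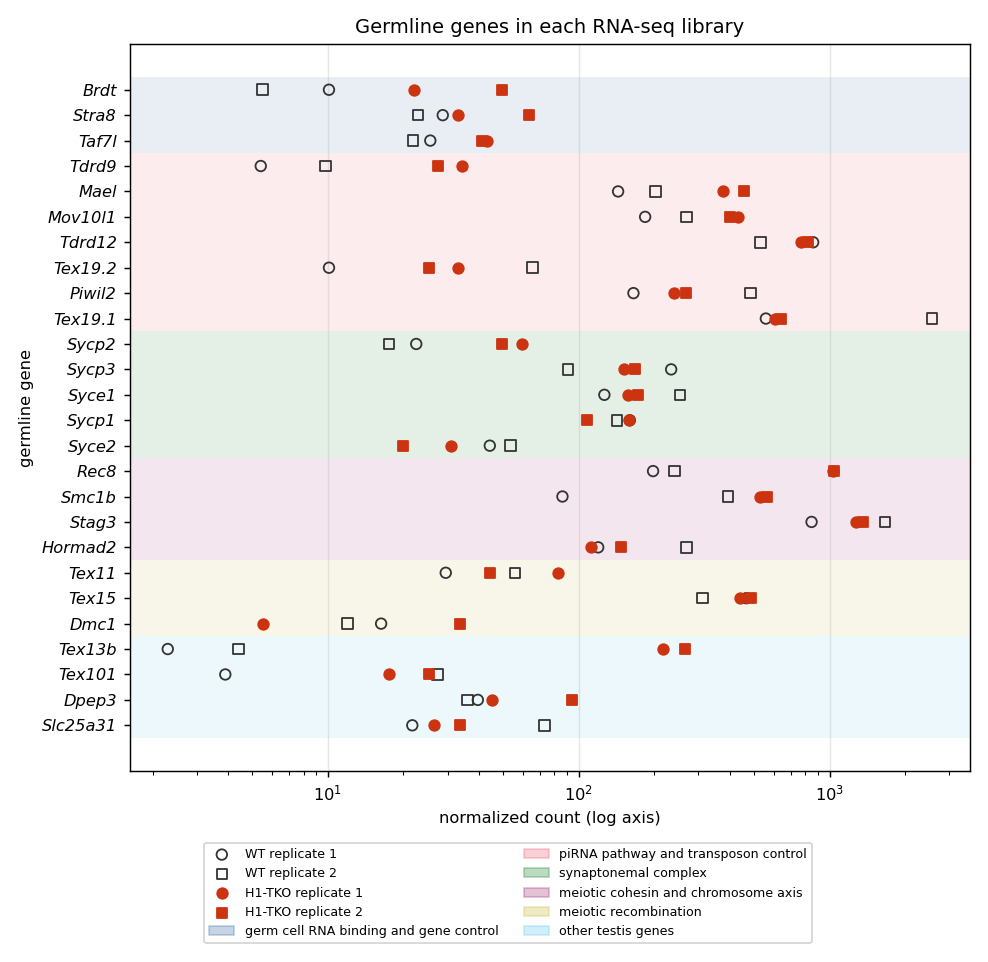
Normalized counts on a log axis for the 26 listed germline genes that passed the filter, with open symbols for the 2 WT libraries and filled symbols for the 2 H1-TKO libraries (genotype by table column, opposite to the sample labels); shaded bands mark the gene roles. Tex13b, at 2.3 and 4.4 in WT against 216 and 265 in H1-TKO, is separated far more widely than Rec8, Mael or Mov10l1, and several WT pairs lie far apart.

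Tex13b, a testis-expressed gene whose molecular role is little known, was almost silent in WT and clearly expressed in H1-TKO. It lies on the minus strand of the X chromosome at 137342846 to 137347972 (NCBIM37, the assembly also called mm9), and no other annotated gene overlaps it. WT replicates 1 and 2 held 2.3 and 4.4 normalized counts, or 3 and 4 reads, and H1-TKO replicates 1 and 2 held 216 and 265, or 196 and 252 reads. The log2 fold change of normalized count + 1 was 5.83 ± 0.47 (SE, n = 2 libraries per genotype), which is 56.9-fold on that scale. Leaving out either WT library gave 5.49 or 6.17. Among its neighbours within 500 kb that passed the filter, Prps1, a nucleotide synthesis enzyme, rose from 2006 and 1747 to 2654 and 2717 (log2 fold change 0.52 ± 0.13, limma adjusted p = 0.0299), and the autophagy protease gene Atg4a overlapped between genotypes (34.1 and 16.4 against 32.0 and 23.2). Mid2, between Prps1 and Tex13b, stayed at 3.3 to 11.6 in all 4 libraries. The related testis gene Tex13a had 1 read in all 4 libraries together.

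The promoter of Tex13b is shown because this gene moved most in the list. Promoter sequences are from RefSeq on GRCm38.p6, from 250 bases before to 50 after the start, written 5′ to 3′ on the gene's strand; capitals mark CACGTG, the E-box, and GGCGGGA, an E2F-type motif, searched on both strands, where GGCGGGA reads TCCCGCC on the other strand. The letters of these motifs do not overlap each other in the sequences shown. The Tex13b window holds neither motif and has 13 CpGs, with an observed over expected CpG ratio of 0.73.
Tex13b promoter, chrX:140813384-140813683, - strand: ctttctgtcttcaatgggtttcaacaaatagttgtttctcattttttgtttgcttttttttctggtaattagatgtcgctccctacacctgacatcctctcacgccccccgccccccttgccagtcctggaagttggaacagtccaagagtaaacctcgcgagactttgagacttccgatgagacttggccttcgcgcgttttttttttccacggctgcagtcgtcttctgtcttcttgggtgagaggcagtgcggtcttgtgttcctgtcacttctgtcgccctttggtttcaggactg

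Rec8, the meiotic cohesin kleisin that holds sister chromatids together through the first division, had the largest log2 fold change of the 25 genes tested. This ranking is that of the fit on all libraries, with H1-TKO above WT. Brdt or Smc1b exceeded Rec8 in some fits with a library left out. Rec8 held 198 and 241 normalized counts in the WT replicates and 1032 and 1042 in the H1-TKO replicates. The genotypes were far apart and each pair was tight, with a log2 fold change of 2.24 ± 0.17 (SE, n = 2 per genotype) and a limma adjusted p of 0.00135. The call held in all 15 alternative fits, where the adjusted p was at most 0.00634. Rec8 lies on the plus strand of chromosome 14 at 56236874 to 56244232, and no other annotated gene overlaps it. Its promoter, shown for comparison with that of Tex13b, also holds neither motif and has 18 CpGs (ratio 0.72).
Rec8 promoter, chr14:55617916-55618215, + strand: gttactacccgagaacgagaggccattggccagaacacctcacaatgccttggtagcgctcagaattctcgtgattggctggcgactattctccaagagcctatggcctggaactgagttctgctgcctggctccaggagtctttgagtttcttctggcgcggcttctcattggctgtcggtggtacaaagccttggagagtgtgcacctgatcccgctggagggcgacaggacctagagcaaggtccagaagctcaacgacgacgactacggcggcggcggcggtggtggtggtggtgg

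Of the other axis and cohesin genes, none passed the test. Smc1b, the meiotic cohesin ATPase, had 86.1 and 394 normalized counts in the WT pair and 529 and 560 in H1-TKO. Its H1-TKO libraries were above both WT libraries, but the WT libraries differed 4.53-fold. The log2 fold change was 1.56 ± 0.60 with a limma adjusted p of 0.104, and dropping WT replicate 1 gave 0.47 while dropping WT replicate 2 gave 2.65, both called. Smc1b overlaps Gm10923 on the opposite strand, and whether counting used strand is not stated.
Stag3, the meiosis-specific cohesin subunit, had 847 and 1666 in WT and 1273 and 1356 in H1-TKO. Hormad2, an axis protein that monitors synapsis, had 119 and 268 in WT and 112 and 148 in H1-TKO. The WT range of Stag3 enclosed both H1-TKO values, and that of Hormad2 overlapped them. Per kb of exon, Stag3 (219 in WT, 229 in H1-TKO) and Rec8 (79.9 and 377) changed order, on mean normalized count per kb.

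The piRNA pathway held the other calls. Mael, an HMG-box protein needed for transposon silencing in the male germline, had 144 and 202 normalized counts in the WT pair and 375 and 454 in H1-TKO. Both H1-TKO libraries were above both WT libraries, the log2 fold change was 1.27 ± 0.24 and the limma adjusted p was 0.0137. Without H1-TKO replicate 2 the adjusted p was 0.119. Mael lies on chromosome 1 at 168131516 to 168168875, minus strand, and accessions of chromosome 1 had a median log2 fold change 0.524 above that of all accessions. The part of that shift was not tested. Mov10l1, the RNA helicase that feeds precursor transcripts into piRNA production, had 184 and 269 in WT and 430 and 401 in H1-TKO. The groups did not overlap, the log2 fold change was 0.90 ± 0.23 and the limma adjusted p was 0.0355. That call is the less firm of the 2, since it was lost with a lower filter (adjusted p = 0.0664), with no filter (0.072) and without H1-TKO replicate 1 (0.232) or 2 (0.174). Mov10l1 lies on chromosome 15 at 88813339 to 88885582, plus strand, with a U1 small RNA gene inside it.

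The promoters of Mael and Mov10l1 are shown because both hold an E-box, unlike those of Tex13b and Rec8. That of Mael also has 2 copies of the E2F-type motif.
Mael promoter, chr1:166238695-166238994, - strand: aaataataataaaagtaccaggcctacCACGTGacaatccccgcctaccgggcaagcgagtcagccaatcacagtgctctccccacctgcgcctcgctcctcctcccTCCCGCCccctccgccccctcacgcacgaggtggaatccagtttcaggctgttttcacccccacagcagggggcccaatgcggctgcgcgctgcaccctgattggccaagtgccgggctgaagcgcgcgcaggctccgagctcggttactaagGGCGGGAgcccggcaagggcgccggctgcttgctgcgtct
Mov10l1 promoter, chr15:88982744-88983043, + strand: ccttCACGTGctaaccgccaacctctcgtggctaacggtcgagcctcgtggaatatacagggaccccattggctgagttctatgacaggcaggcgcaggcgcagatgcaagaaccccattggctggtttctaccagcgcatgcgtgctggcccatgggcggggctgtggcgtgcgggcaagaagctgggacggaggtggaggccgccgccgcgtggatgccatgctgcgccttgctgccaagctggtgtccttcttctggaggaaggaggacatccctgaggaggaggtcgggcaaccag

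A further 5 piRNA genes passed the filter and were not called. Tdrd9, an RNA helicase with a Tudor domain, had 5.4 and 9.8 normalized counts in the WT pair and 34.2 and 27.4 in H1-TKO, without overlap, and its log2 fold change was 1.92 ± 0.60 (limma adjusted p = 0.0594). It overlaps BC048943 on the opposite strand, and 73 reads lay behind its 4 values. Tdrd12, a helicase of secondary piRNA production, had 860 and 531 in WT and 768 and 817 in H1-TKO, which overlapped. Piwil2, the PIWI protein Mili, had 165 and 483 in WT and 239 and 268 in H1-TKO, so both H1-TKO values lay between the WT values. The direction of Piwil2 turned with the WT library left out, from -0.93 without replicate 1 to 0.61 without replicate 2.
Tex19.1, a transposon regulator of germ cells and placenta, had 557 and 2564 in WT and 606 and 642 in H1-TKO. Tex19.2, its neighbouring paralog, had 10.1 and 65.4 in WT and 33.1 and 25.3 in H1-TKO. For both genes WT replicate 2 was the highest library and WT replicate 1 the lowest. The log2 fold change of Tex19.1 fell to -2.04 when WT replicate 1 was dropped and was 0.16 when WT replicate 2 was dropped. Both lie on chromosome 11, where the median differed from that of all accessions by -0.349 on the log2 scale.

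WT replicate 2 was at least 2-fold above WT replicate 1 for 7 of the 26 genes, namely Piwil2, Tex19.1, Tex19.2, Smc1b, Hormad2, Tex101 and Slc25a31, and at least 2-fold below it for 1, Sycp3. Over all accessions tested, 5.77% were that far above and 7.5% that far below. The H1-TKO libraries were at least 2-fold apart for 3 of the 26, against 6.52% of all accessions.

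**Figure D2:**
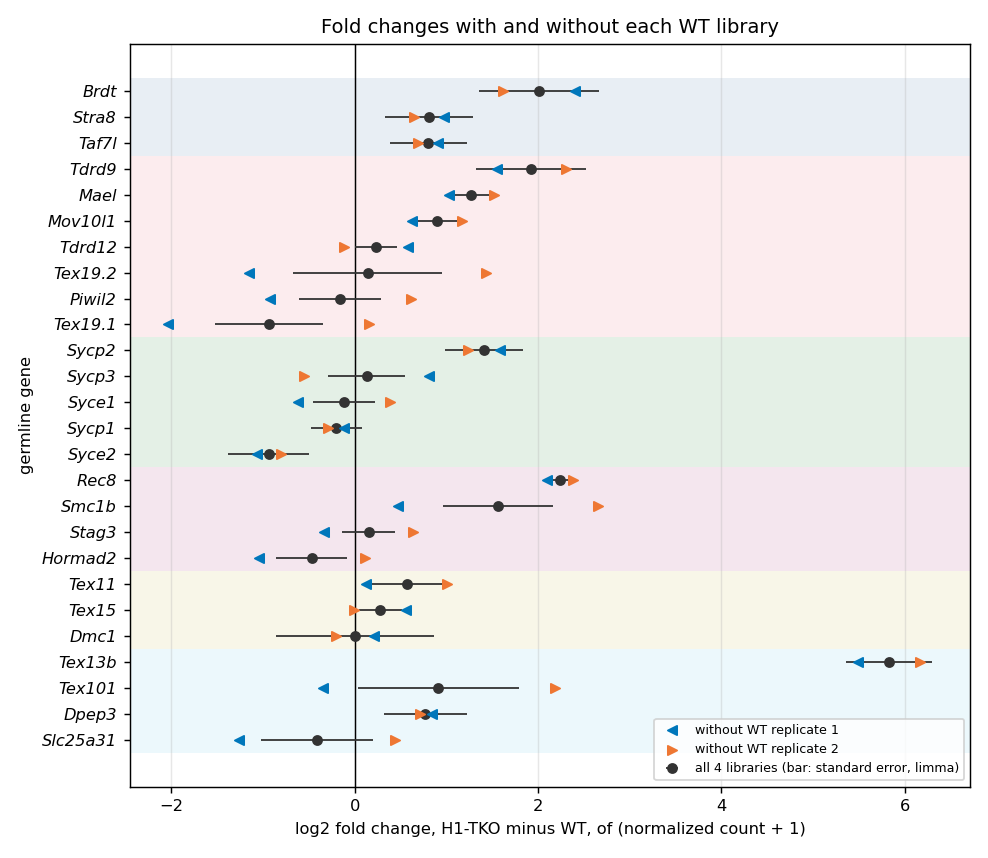
Log2 fold changes (H1-TKO minus WT, of normalized count + 1; genotype by table column, opposite to the sample labels) of the 26 genes, with black points and standard error bars from limma on all 4 libraries and triangles for the same value without WT replicate 1 or without WT replicate 2. Rec8 stays between 2.10 and 2.38 whichever WT library is left out, whereas Tex19.1 runs from -2.04 to 0.16 and Smc1b from 0.47 to 2.65.

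All 3 of the germ cell RNA binding and gene control genes that passed the filter had both H1-TKO libraries above both WT libraries, beside 32.2% of all accessions, and none was called. Brdt is among the 3 and entered through its H1-TKO libraries. Stra8, the retinoic acid induced gatekeeper of meiosis, had 28.7 and 22.9 normalized counts in the WT pair and 33.1 and 63.2 in H1-TKO (limma adjusted p = 0.254). Taf7l, a germ cell variant of a TFIID subunit, had 25.6 and 21.8 in WT and 43.0 and 41.1 in H1-TKO (limma adjusted p = 0.207). Brdt, the testis bromodomain protein, had 10.1 and 5.5 in WT and 22.0 and 49.5 in H1-TKO. Its log2 fold change was 2.01 ± 0.65 with a limma adjusted p of 0.0674. Leaving out 1 library gave limma adjusted p-values of 0.00158 and 0.0273 (without WT replicate 1 and 2) and of 0.12 and 0.462 (without H1-TKO replicate 1 and 2). Brdt entered through its H1-TKO libraries, so none of these is support for a difference. All 3 were low, with 85 to 148 reads over the 4 libraries.

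Among synaptonemal complex genes, Sycp2 and Syce2 separated in opposite directions, and neither was called. Sycp2, a lateral element protein, had 22.5 and 17.5 normalized counts in the WT pair and 59.5 and 49.5 in H1-TKO, and its log2 fold change was 1.41 ± 0.43 (limma adjusted p = 0.0559). Syce2, a central element protein, had 44.2 and 53.4 in WT and 30.9 and 20.0 in H1-TKO, and its log2 fold change was -0.94 ± 0.44 (limma adjusted p = 0.162). Syce2 was the one gene of the 26 whose H1-TKO libraries both lay below WT, it overlaps Gcdh on the opposite strand, and the median of its chromosome 8 differed from that of all accessions by -0.215 on the log2 scale.
The remaining members of this group did not separate. Sycp1, the transverse filament protein, had 160 and 142 in WT and 159 and 107 in H1-TKO. Sycp3, the other lateral element protein, had 233 and 90.5 in WT and 151 and 168 in H1-TKO, and overlaps Chpt1 on the opposite strand. Syce1, of the central element, had 126 and 253 in WT and 156 and 173 in H1-TKO. For Sycp3 and Syce1 the WT values lay on either side of both H1-TKO values.

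None of the 3 recombination genes that passed the filter separated by genotype. Dmc1, the meiotic recombinase, had 16.3 and 12 normalized counts in the WT pair and 5.5 and 33.7 in H1-TKO. Tex11, an X-linked gene of crossover formation, had 29.5 and 55.6 in WT and 82.6 and 44.2 in H1-TKO. Tex15, which acts in break repair and piRNA-directed methylation, had 466 and 312 in WT and 438 and 486 in H1-TKO. Limma adjusted p-values of these 3 genes were 0.411 to 0.999.

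The other testis genes that passed the filter lay above Tex13b in WT and below it in H1-TKO, on mean normalized count per kb. Dpep3, a membrane dipeptidase of germ cells, had 39.6 and 36.0 normalized counts in the WT pair and 45.2 and 93.7 in H1-TKO, without overlap and not called (limma adjusted p = 0.245). Tex101, a surface glycoprotein of sperm precursors, had 3.9 and 27.3 in WT and 17.6 and 25.3 in H1-TKO. Slc25a31, the testis ADP/ATP carrier, had 21.7 and 73.1 in WT and 26.4 and 33.7 in H1-TKO. For Tex101 and Slc25a31 the single high WT library was replicate 2.

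Of the listed genes, 11 were under the filter and Piwil4 had no accession in the tables. Tdrd5, a piRNA factor on chromosome 1, was the only one of them to reach 10 in a library, with 2.3 and 7.6 normalized counts in the WT pair and 7.7 and 22.1 in H1-TKO. Hormad1, the axis partner of Hormad2, had 3.1 and 3.3 in WT and 7.7 and 2.1 in H1-TKO, which overlapped. Tdrd1, Tdrd6, Syce3 and Spo11 were listed at 0 in all 4 libraries, and the classical germ cell markers Dazl and Ddx4 had 2 reads and 1 read in all. Asz1, Fkbp6 and Tex14 had 8, 1 and 19 reads. These low values cannot be read as silence, because 10 of the 11 genes had several accessions. Of the 14 listed genes with several accessions 4 passed the filter, against 22 of the 23 with a single one. Brdt, Syce2, Dmc1 and Tex11 are those 4, so their values may also be undercounted, as may those of Mga and Tfap2c below. The same held for the whole table, where 21.4% of 5158 genes with several accessions passed against 51.1% of 18980 with a single one.

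Germline genes outside the list gave calls in both directions. Of 71 such genes 37 were tested, 2 rose and 3 fell, beside 9.84% higher and 10.7% lower of all accessions, and their median log2 fold change was 0.10. These counts were 8 higher and 11 lower without WT replicate 1, 11 and 5 without WT replicate 2, and 1 and 2 without either H1-TKO replicate, beside shares of all accessions of 24.1% and 25.1%, of 21.5% and 23.1%, and of 1.79% to 1.85% and 3.47% to 3.57% in the same fits. Meioc, a meiotic prophase factor, rose from 410 and 485 normalized counts to 953 and 799 (log2 fold change 0.97 ± 0.17, limma adjusted p = 0.0119). Sohlh2, a helix-loop-helix factor of spermatogonia and oocytes, rose from 126 and 390 to 927 and 993 (2.10 ± 0.45, limma adjusted p = 0.0203). Usp26, an X-linked deubiquitinase, fell from 866 and 1376 to 485 and 488 (limma adjusted p = 0.0148), and Ldhc, the testis lactate dehydrogenase, fell from 44.2 and 61.1 to 12.1 and 16.9 (limma adjusted p = 0.0376). The fifth, Zfy1, is the Y-linked gene given above, and the 5 tested accessions of the Y chromosome had a median log2 fold change of -5.61. Of 9 primordial germ cell markers 7 were tested, and Tfap2c rose from 15.5 and 28.4 to 55.1 and 80.0 (limma adjusted p = 0.0497) with none called lower. At an unadjusted limma p under 0.05 there was 1 higher, Tfap2c, and 1 lower, Prdm1, beside 17.8% higher and 19.8% lower of all accessions. Prdm1, a defining early marker, had 387 and 303 against 263 and 219 and was not called, and the receptor gene Kit, which has several accessions, was listed at 0 to 1.1.

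Of 28 silencers of germline genes 16 were tested, 3 fell and none rose by limma. The 12 under the filter each have several accessions, so their low values cannot be read. They include E2f6, Max, Dnmt1, Dnmt3a, Dnmt3b, Setdb1, Ehmt1 and Ehmt2, and the counts do not cover these silencers. The background of calls was the 9.84% higher and 10.7% lower given above. At an unadjusted p under 0.05 the counts were 4 lower and 0 higher, beside the 19.8% and 17.8% of all accessions, and edgeR and DESeq2 each called 3 lower and 0 higher. Hdac1, a histone deacetylase, fell from 413 and 368 normalized counts to 73.8 and 76.9 (log2 fold change -2.35 ± 0.22, limma adjusted p = 0.00232). Mga, the E-box binding scaffold of PRC1.6, fell from 278 and 368 to 182 and 161 (-0.90 ± 0.23, limma adjusted p = 0.0338), and Kdm5c, an H3K4 demethylase, fell from 3241 and 3602 to 2035 and 2158 (-0.70 ± 0.12, limma adjusted p = 0.0109). Leaving out either H1-TKO library left 1 silencer called lower, and leaving out WT replicate 1 or 2 gave 5 or 6 lower and 2 or 3 higher. Of all accessions, 3.47% to 3.57% were called lower without an H1-TKO library, and without WT replicate 1 or 2 the shares were 25.1% or 23.1% lower and 24.1% or 21.5% higher. Among 9 activators and demethylation factors 5 were tested, and the DNA demethylation enzymes Tet2 and Tet3 fell, from 1842 and 3384 to 968 and 1022 (limma adjusted p = 0.0154) and from 268 and 277 to 140 and 86.4 (limma adjusted p = 0.0213). Of 14 pluripotent cell markers 12 were tested, 6 rose, among them Klf4, Sox2, Tfcp2l1, Dppa5a and Fgf4, and Tdgf1 fell. Of 9 listed 2-cell-like cell markers 4 were tested and Usp17la rose, from 10.1 and 12 to 57.3 and 46.3 (limma adjusted p = 0.0230), while the other 3 were not called: Zscan4d had 29.5 and 46.9 against 90.3 and 79.0, without overlap (limma adjusted p = 0.0682), and Zscan4c and Zscan4f overlapped between genotypes. Of the feeder markers 3 were tested, Col1a1 fell and Thy1 rose, and of the differentiation markers 6 were tested and Nes fell. Whether any of these changes had a part in the germline values was not tested.

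The genes were listed by function, from a class in which CpG-rich promoters reached through the E-box are known, as stated above. The shares below therefore describe this list, and they were not counted for the other germline genes. RefSeq gave 41 promoter windows of 300 bases for 33 of the 38 genes, and none for Piwil2, Spo11, Tdrd6, Tex11 and Tex15. The observed over expected CpG ratio was at least 0.6 in 26 of the 41 windows (63.4%), against 36.1% of 32851 windows of all genes, and the median ratio was 0.70 against 0.38. The E-box CACGTG stood in 17 windows (41.5%), against 7.15% of all windows. Among windows with a CpG ratio of at least 0.6 it stood in 61.5% of those of the germline genes and in 11.3% of all such windows. Counted once per gene, it stood in 14 of 33 genes, against 8.09% of 27025 genes. The E2F-type motif stood in 7 windows (17.1%), against 11.3% of all. Among the genes with an E-box were called Mael and Mov10l1, uncalled Stag3, Sycp1 and Slc25a31, and Ddx4 and Fkbp6, which were under the filter, while Tex13b, Rec8 and Smc1b had none. Some genes contribute overlapping windows, and a match is only a match of letters.

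H3K27me3 peaks lay within 2 kb of an annotated start of 14 of the 38 genes in WT and of 14 in H1-TKO. That is 36.8% in each (exact 95% binomial interval 21.8% to 54.0%, which covers counting error only), against 14.4% of 22380 protein-coding genes in WT and 13.1% in H1-TKO. Of the 71 other germline genes 68 could be placed, and 11 of these had a peak in WT (16.2%, 8.36% to 27.1%) and 10 in H1-TKO (14.7%, 7.28% to 25.4%), and the difference between the lists was not tested. With a single peak list per genotype there is no replicate check and no test between genotypes. The study reported reduced H3K27me3 in H1-TKO cells by immunoblot, by ChIP-qPCR and by ChIP-seq normalized to a fly reference. A listed peak or its MACS score is not a measure of that level, so equal counts do not show equal marking. Both lists had a peak for 11 genes, which is 78.6% of each list's 14, and over all protein-coding genes the shared part was 74.8% of the WT genes and 82.1% of the H1-TKO genes. The peaks of the 2 genotypes overlapped in position at 8 of these 11 genes and did not at Tex15, Syce1 and Tex101. Overlap in position was not counted over all genes, so whether 8 of 11 is usual is not known. Tdrd5, which GENCODE M1 types as a lincRNA, is counted among the 38. The count was 7 in each genotype when a MACS score of at least 100 was required, where 7.69% and 6.72% of protein-coding genes remained.

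The highest peak in both genotypes was at Slc25a31, with a MACS score (which grows as the peak's p-value falls) of 360 in WT and 271 in H1-TKO, and the next in WT at Sycp1, with 321 in WT and 179 in H1-TKO. The WT peak of Slc25a31 ran from 40512392 to 40513925 on chromosome 3 (NCBIM37) and the H1-TKO peak from 40512703 to 40513876. The promoter window of Slc25a31, matched letter for letter to NCBIM37 at 40512543 to 40512842, lay wholly inside the WT peak and for 140 bases inside the H1-TKO peak. It is shown because it holds both motifs and the strongest peak.
Slc25a31 promoter, chr3:40708621-40708920, + strand: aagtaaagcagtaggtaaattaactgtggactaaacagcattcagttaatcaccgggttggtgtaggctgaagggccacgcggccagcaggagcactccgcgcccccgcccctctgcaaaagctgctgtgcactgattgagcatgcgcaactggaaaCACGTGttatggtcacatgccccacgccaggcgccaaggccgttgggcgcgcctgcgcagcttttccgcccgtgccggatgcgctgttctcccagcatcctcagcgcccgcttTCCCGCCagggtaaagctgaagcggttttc

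Tdrd6 had nearly equal scores, 213 in WT and 213 in H1-TKO, in a peak of 2351 and 2429 bases over its start. Tdrd5 had 153 and 150, and Mael, which rose in RNA, had 138 and 127, in a peak of 609 bases in WT and 780 in H1-TKO. Tex15 had 201 at 15 bases from a start in WT and 68.0 at 1537 bases in H1-TKO. The top scores of Ddx4 and Tdrd1 went the other way, from 141 to 173 and from 82.8 to 142, but their peaks were split differently. At Ddx4 the 2 top peaks did not overlap, and the H1-TKO peaks that overlapped the WT peak of 141, which covers the start, scored 52.2 and 54.0. At Tdrd1 the H1-TKO peak of 142 overlapped WT peaks of 66.9 and 82.8. These top scores therefore do not compare like peaks. Syce1, Syce2 and Tex101 had scores of 52.3 to 73.5, close to the lowest score of 50 that either list holds.

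There were 6 genes with a peak in one list alone, all with low scores. Mov10l1 (85.9), Brdt (81.3) and Hormad1 (77.4) had one in WT only, and in H1-TKO the nearest listed peaks were 27412, 40662 and 130290 bases away. Taf7l (65.2), Tex19.1 (58.5) and Tex11 (50.6) had one in H1-TKO only. In RNA, both H1-TKO libraries lay above both WT libraries for Mov10l1, Brdt and Taf7l, beside 32.2% of all accessions tested. Brdt passed the filter through its H1-TKO libraries. Hormad1, Tex19.1 and Tex11 overlapped between genotypes. Any link between these peaks and the RNA values was not tested. Tex13b and Rec8 had no peak near: the closest to Tex13b was 363164 bases away in WT and 532528 in H1-TKO, and the closest to Rec8 137026 and 136602. A peak missing from a list means only that no peak passed the caller's limit there.

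**Figure D3:**
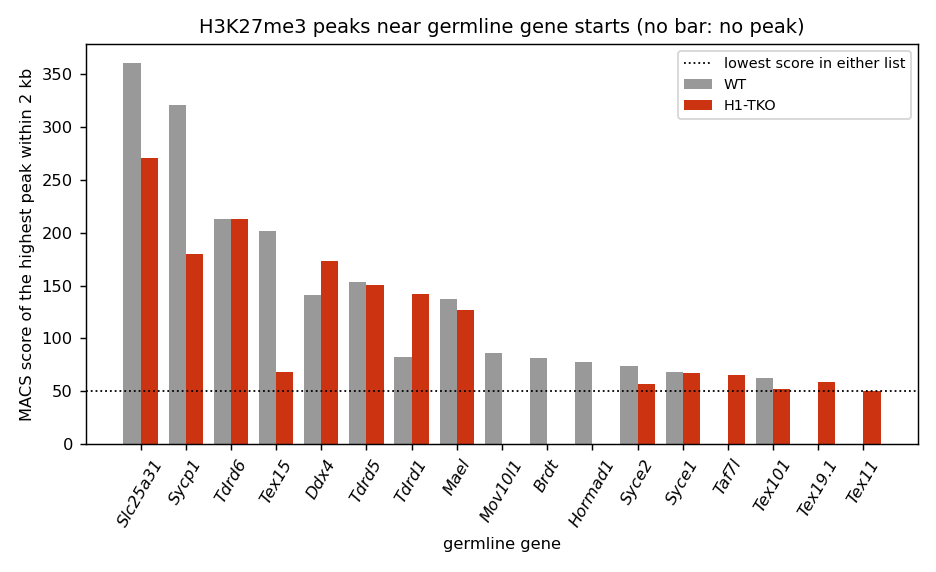
MACS score of the highest H3K27me3 peak within 2 kb of a start (y axis) for the 17 germline genes with a peak in either genotype, grey for WT and red for H1-TKO, no bar where no peak was listed, dotted line at 50, the lowest score of either list. All scores above 86 belong to genes among the 11 with a peak in both genotypes, and the 6 genes with a peak in one genotype alone lie between 50.6 and 85.9.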

How the data were processed

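The deposited RNA-seq values are a signal, normalized counts: per the study's methods the authors used Subread to map read pairs onto mm9 genes, kept unique reads, counted with featureCounts and scaled with DESeq2. In each library every value was a whole multiple of 1 step (100% of values within 0.01 of a whole read), so reads were recovered. Per the labels and methods, the authors aligned H3K27me3 reads with Bowtie2, filtered with SAMtools and called peaks with MACS, and the deposited peak score is the negative log10 of its p-value multiplied by 10 (cutoff 1e-05).

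Accessions were matched to symbols through the gene names table, 33650 of 34010, and to GENCODE M1 on NCBIM37. Each gene is represented by its accession of highest mean. limma 3.58.1 (eBayes with trend) was run on log2(normalized count + 1) for accessions with a mean of at least 10, with an adjusted p threshold of 0.05; the fold change understates low genes. Standard errors come from this fit. Alternatives on recovered reads used edgeR 4.0.16 and DESeq2 1.42.0. Only the main limma fit was run on simulated counts, which had the same spread in every gene and library. That run does not check the alternatives or the uneven WT pair. The members, lists and tests were chosen with earlier results of these data known. All listed genes are accounted for; called genes of other lists are named, at most 5 a direction. Genes named from peak and promoter results were chosen after their values were seen. Intervals are exact Clopper-Pearson. The second H3K27me3 replicates and the replication time courses were not used here.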

Additional observations from a re-analysis of the deposited data

How the results depend on the processing

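Rec8 was called under every alternative run, Mael under 13 of 14 and Mov10l1 under 11 of 15. Leaving out 1 library, with a lone library assumed to vary like the others, moved the counts most: the listed genes called higher ran from 1 to 10 and lower from 0 to 7, all accessions from 199 to 2682 higher and from 386 to 2786 lower, the other germline genes from 1 to 11 higher and from 2 to 11 lower, and the silencers from 0 to 3 higher and from 1 to 6 lower. The large counts came without a WT library, the small ones without an H1-TKO library. A filter of a mean of at least 1 gave 702 higher and 765 lower over all accessions and 1 other germline gene higher, and no filter gave 624, 697 and 1. A filter of at least 50 left 1 other germline gene lower, and leaving out chromosomes 1, 8, 11 and Y left 1 higher. With a replicate block 7 listed genes were called higher and 1 lower, and 4 other germline genes higher and 5 lower, while over all accessions the block raised the calls to 1521 higher (13.7%) and 1778 lower (16.0%); libraries with the same number did not deviate together (r = 0.011 over 11113 accessions), so they share only a number. A MACS score of at least 100 left 7 listed genes with a peak in WT and 7 in H1-TKO. Of the single-gene values, 23 newly passed the threshold in the same direction, 5 lost it and 21 changed direction, of which 4 passed (Piwil2, Stag3, Sycp3 and Tex19.2, each without a WT library). The log2 fold changes that turned ran, over the fits without 1 library, from -1.2 to 1.21 for Dmc1, -1.05 to 0.11 for Hormad2, -0.93 to 0.61 for Piwil2, -1.26 to 0.44 for Slc25a31, -0.34 to 0.63 for Stag3, -0.62 to 0.38 for Syce1, -0.48 to 0.08 for Sycp1, -0.55 to 0.81 for Sycp3, -0.12 to 0.58 for Tdrd12, -0.35 to 2.18 for Tex101, -0.01 to 0.56 for Tex15, -2.04 to 0.16 for Tex19.1 and -1.15 to 1.43 for Tex19.2. By edgeR and DESeq2 Tex19.2 was -0.33 and -0.35 and Sycp3 -0.02 and -0.01, and Dmc1 was -0.02 with a pseudocount of 0.5 and -0.03 with quantile normalization; the cause was not tested. Depth limits the low genes most: the 2 WT libraries together held 7 reads of Tex13b.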
